A study of Mus musculus with 5 samples.

Results

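The collagen genes are 42 of the 18327 genes that could be named on the array, and 70 of its 41174 gene probes belong to them. They were chosen by symbol (Col, a number, the letter a and a number), and every gene of that form that could be named on the array was taken. Earlier results of these data were known when the set was chosen. By the form in which their proteins assemble, 11 are fibrillar collagens, 6 are basement membrane collagens of type IV and 25 are other collagens. The RefSeq table of mouse genes holds 44 collagen genes. The other 2, Col6a3 and Col12a1, were not found by name among the probes and were not analysed here.

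Collagens are the main structural proteins outside cells. Their chains wind around each other in a helix within the cell, are secreted, and are then trimmed and crosslinked. Fibrillar collagens pack into fibrils that carry tension, type IV collagen forms the sheet of the basement membrane under epithelia, and the remaining types decorate fibrils, form beaded filaments or hexagonal nets, anchor epithelia or sit in the cell membrane. In the early mouse embryo type IV collagen and laminin are among the first to appear, and in liver fibrillar collagens come mainly from stellate cells and fibroblasts, while hepatocytes make little of them.

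The series followed hybrids of embryonic stem (ES) cells and hepatoma cells from the undifferentiated state into differentiation, with total RNA of 5 cell populations on 1 array each. ES was the mouse line E14. Hepa1-6 was a mouse hepatoma line. EHe was the hybrid of both, made by fusion with polyethylene glycol of E14 cells that carried hygromycin resistance and a red fluorescent protein with Hepa1-6 cells that carried neomycin resistance and a green one, and picked as colonies that looked like ES cells after selection with both drugs. EHeD7 and EHeD14 were EHe differentiated in culture for 7 and 14 days. The hybrids held a near-tetraploid chromosome set, and whether 1 clone or several gave the RNA is not given in the sources used here.

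ES and EHe grew in Glasgow minimum essential medium with 10% knock-out serum replacement, 1% fetal bovine serum and 1000 units/ml of leukemia inhibitory factor. By the labels, EHeD7 and EHeD14 grew as a monolayer on gelatin, a denatured collagen, in high-glucose medium that held 15% fetal calf serum, with no inhibitory factor listed, and the hepatoma line was kept with 10% fetal calf serum in the same kind of medium. The methods of the study describe embryoid bodies without naming the array samples. Medium, serum and cell state thus changed together, and their parts in any difference between EHe and the differentiated hybrids cannot be told apart.

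Levels below are log2 signals relative to the 75th percentile of the same array, so a level of 0 is a bright probe and 1 unit is a factor of 2. Each gene is given by 1 probe, and levels of different genes are not compared, because probes differ in brightness. The scanner software called between 54.6% (Hepa1-6) and 67.6% (EHeD7) of probes well above background. With 1 array per condition no error between replicates exists, no test was possible, and the number of arrays limits the precision of every value. The spread between repeated spots of a probe on 1 array had a median SD between 0.071 and 0.101 on the log2 scale, and differences between probes of the same gene a median SD between 0.104 and 0.265 over all genes and up to 0.474 over the collagens. Of 12 collagens with several measured probes, 7 had probes on both sides of 3-fold for Hepa1-6 against ES and 2 for EHeD14 against EHe. A difference is called here when it passes 3-fold, or 1.58 on the log2 scale. Where a probe was not well above background in 1 of 2 conditions, the fold is a lower bound ("at least"), taken against the lowest signal called well above background on that array or the probe's own signal, whichever was higher. The array of Hepa1-6 lay on a different slide from the other 4, so slide and line cannot be told apart in any comparison with Hepa1-6.

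Most collagen genes were measurable somewhere. Of the 42, 35 were well above background on at least 1 array (83.3%, beside 84.3% of all named genes), and 14 were on all 5. The largest number was found in EHeD7, with 34, followed by 31 in EHeD14, 30 in ES and 26 in EHe. Hepa1-6 had 20. The 7 that were not well above background anywhere were Col4a3, Col6a6, Col9a1, Col10a1, Col15a1, Col24a1 and Col28a1. Of the fibrillar collagens, 10 of 11 were above background in EHeD7 and in EHeD14 and 5 in Hepa1-6, and of the type IV collagens 5 of 6 and 4.

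**Figure D1:**
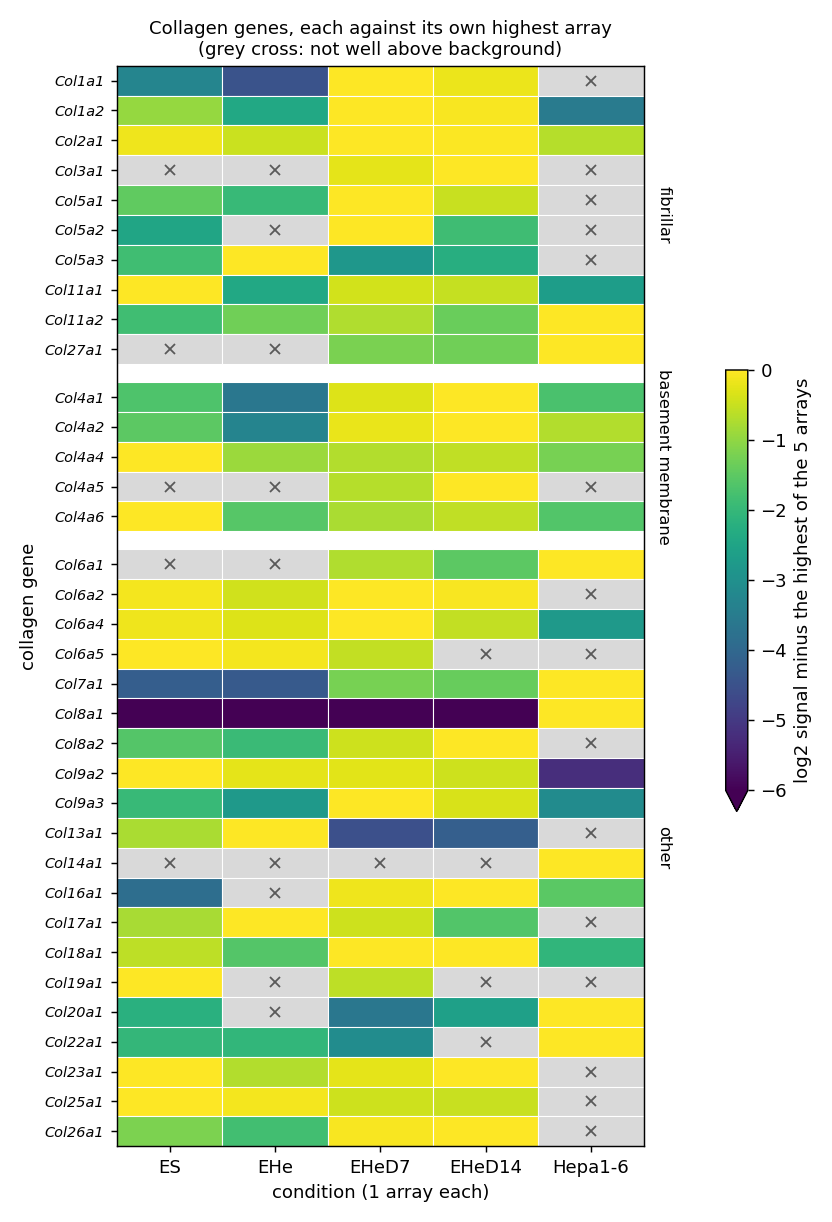
Rows are the 35 collagen genes well above background on at least 1 array, grouped by class, and columns are the 5 conditions with 1 array each. Colour gives the log2 signal minus that of the gene's own highest array (0, yellow, down to -6 or less, dark), grey cells with a cross were not well above background, and the reader should see yellow in EHeD7 and EHeD14 for Col1a1, Col1a2, Col4a1, Col4a2, Col16a1 and Col18a1, and in Hepa1-6 for Col6a1, Col7a1, Col8a1, Col14a1, Col20a1 and Col22a1.

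On differentiation of EHe more collagen genes rose than fell. At day 14, 12 of the 35 were over 3-fold higher than in EHe (34.3%, where 6.77% of the 15443 measurable genes were) and 5 were over 3-fold lower (14.3%, where 4.38% of all were). At day 7, 13 were higher (37.1%, against 6.71% of all genes) and 2 lower (5.71%, against 4.09%). The median log2 difference of the collagens was 0.85 at day 7 and 1.02 at day 14, while that of all genes was -0.02 at both days. The 2 days share the EHe array, so they are not separate evidence. In such cultures more cells of a collagen-making type and more collagen RNA per cell cannot be told apart. By class the day 14 medians were 1.20 for the fibrillar, 1.02 for the basement membrane and 0.52 for the other collagens, and 3, 2 and 7 members rose.

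Among the fibrillar collagens, type I, the main collagen of bone, skin and tendon, stood out. The 2 chains of type I are encoded by Col1a1 and Col1a2, on different chromosomes. Col1a1 had a level of -2.98 in ES and -4.17 in EHe, then 0.29 and 0.11 in EHeD7 and EHeD14, and was not well above background in Hepa1-6 (-5.83). It was printed 10 times, and the SD between its spots was 0.20 in EHe and between 0.066 and 0.089 in ES and in the differentiated hybrids. Col1a2 was at -1.62 in ES and -3.08 in EHe, then -0.67 and -0.73 in EHeD7 and EHeD14 and -4.19 in Hepa1-6. Both chains were thus lowest in Hepa1-6, next lowest in EHe and highest in the differentiated hybrids. Against EHe, Col1a1 was 22.1-fold higher at day 7 and 19.5-fold at day 14, and Col1a2 5.32-fold and 5.08-fold. The other probes of Col1a1 were dimmer: one was not well above background anywhere, and the other was so only in EHeD7 (-3.32) and EHeD14 (-3.26), at least 2.87-fold and 2.99-fold above EHe.

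The region just upstream of Col1a2 is shown because both chains of type I rose and RefSeq gives a promoter window for this one of them. It covers the 250 bases before the start site on the plus strand of mouse chromosome 6, at chr6:4505368-4505617 of GRCm38.p6, and capitals mark GGGCGG, the core of a GC box, and CCAAT.
Col1a2: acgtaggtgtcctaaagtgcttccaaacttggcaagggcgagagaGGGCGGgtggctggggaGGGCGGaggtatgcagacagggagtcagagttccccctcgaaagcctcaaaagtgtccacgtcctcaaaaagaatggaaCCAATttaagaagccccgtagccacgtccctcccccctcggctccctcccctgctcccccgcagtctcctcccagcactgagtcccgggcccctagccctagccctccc

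Type V and type XI collagens, minor fibrillar types that are known to seed fibrils and set their width, did not move as sets. Col5a1 was at 0.09 in ES and -0.39 in EHe, then 1.55 and 1.04 in EHeD7 and EHeD14, and not well above background in Hepa1-6 (-7.57). Day 7 stood 3.85-fold above EHe, while the 2.71-fold of day 14 did not pass. A second, dimmer Col5a1 probe did not follow this course, with -4.27 in ES, not well above background in EHe (-4.80), -4.95 and -4.62 in EHeD7 and EHeD14, and -5.27 in Hepa1-6, where it was called well above background. The upstream region of Col5a1 is printed because its main probe had the widest gap of the fibrillar collagens between the differentiated hybrids and Hepa1-6. It lies on the plus strand at chr2:27886175-27886424 of GRCm38.p6, and capitals mark GGGCGG or its reverse complement CCGCCC.
Col5a1: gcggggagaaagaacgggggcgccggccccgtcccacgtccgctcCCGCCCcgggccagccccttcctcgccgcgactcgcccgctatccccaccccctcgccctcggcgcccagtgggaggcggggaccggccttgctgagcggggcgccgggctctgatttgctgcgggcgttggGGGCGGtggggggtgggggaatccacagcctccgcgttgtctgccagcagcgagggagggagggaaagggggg

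Col5a2, whose product joins that of Col5a1 in the common form of type V, was at -4.56 in ES, not well above background in EHe (-6.75), at -2.10 in EHeD7 and at -3.97 in EHeD14, and not well above background in Hepa1-6 (-7.51). It was at least 6.7-fold above EHe at day 7 and 3.67-fold lower at day 14 than at day 7. Against EHe the day 14 value was at least 1.83-fold higher, below the threshold. Col5a3, a rarer type V chain, ran the other way. Its level was -2.99 in ES and -1.14 in EHe, then -3.96 and -3.39 in EHeD7 and EHeD14 and not well above background in Hepa1-6 (-7.57). EHe was thus its highest array, 3.6-fold above ES, and it was 7.07-fold lower at day 7 and 4.75-fold lower at day 14. A second Col5a3 probe was not well above background on any array.

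Col11a1, the first chain of type XI, was at -1.65 in ES and -4.06 in EHe, then -2.06 and -2.19 in EHeD7 and EHeD14 and -4.35 in Hepa1-6. Day 7 stood 3.99-fold and day 14 3.66-fold above EHe, which with Hepa1-6 formed its low pair. Its partner Col11a2 was at -3.42, -2.90, -2.31, -2.96 and -1.59 in the same order, within 3-fold of EHe at both days. Col2a1, the cartilage collagen, was within 3-fold in all comparisons, with levels between -1.62 (Hepa1-6) and -0.95 (EHeD7), although its other probe, with -1.88 in EHeD14, was not well above background in Hepa1-6 (-6.06) and at least 10.8-fold apart there. Col3a1, which shares fibrils with type I in soft tissues, was well above background in EHeD7 (-3.97) and EHeD14 (-3.73) only, at least 1.82-fold and 2.16-fold above EHe. Col27a1, a cartilage fibrillar collagen, was not well above background in ES (-6.19) or EHe (-4.45), and was at -3.07 and -3.16 in EHeD7 and EHeD14, and -1.86 in Hepa1-6.

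Basement membrane collagen rose through its main chains. Col4a1 and Col4a2 encode the chains of the type IV protein that is common to nearly all basement membranes. Col4a1 was at 1.14 in ES and -0.82 in EHe, then 2.49 and 2.81 in EHeD7 and EHeD14 and 1.10 in Hepa1-6. Col4a2 was at 0.52 in ES and -1.25 in EHe, then 1.85 and 2.04 in EHeD7 and EHeD14 and 1.34 in Hepa1-6. Both had their lowest array in EHe and their highest in EHeD14. Against EHe, Col4a1 was 9.89-fold higher at day 7 and 12.4-fold at day 14, and Col4a2 8.6-fold and 9.8-fold. A second probe of each gave 7.65-fold and 9.57-fold for Col4a1, and 8.3-fold and 8.77-fold for Col4a2.

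These 2 genes lie head to head on mouse chromosome 8, and the bases between their start sites are shown because both rose on both probes. RefSeq places the Col4a2 start at 11312805 on the plus strand and the Col4a1 start at 11312826 on the minus strand of GRCm38.p6, so the transcripts overlap by 22 bases and run apart from there. The stretch is given on the plus strand, chr8:11312805-11312826, with GGGCGG in capitals.
Col4a1 and Col4a2: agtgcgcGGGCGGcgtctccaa

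The remaining type IV chains belong to specialised membranes such as those of the kidney glomerulus and lens. Col4a6 was at -0.22 in ES and -1.81 in EHe, then -0.99 and -0.79 in EHeD7 and EHeD14 and -1.85 in Hepa1-6, 2.03-fold higher at day 14 than in EHe. Its probes disagreed: both others were well above background in EHeD7 and EHeD14 only, and one of them was at least 16-fold and 26.3-fold above EHe. Col4a4 stayed between 2.28 (Hepa1-6) and 3.51 (ES). Col4a5, next to Col4a6 on the X chromosome, was well above background in EHeD7 (-5.50) and EHeD14 (-4.82) only, and Col4a3 nowhere.

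**Figure D2:**
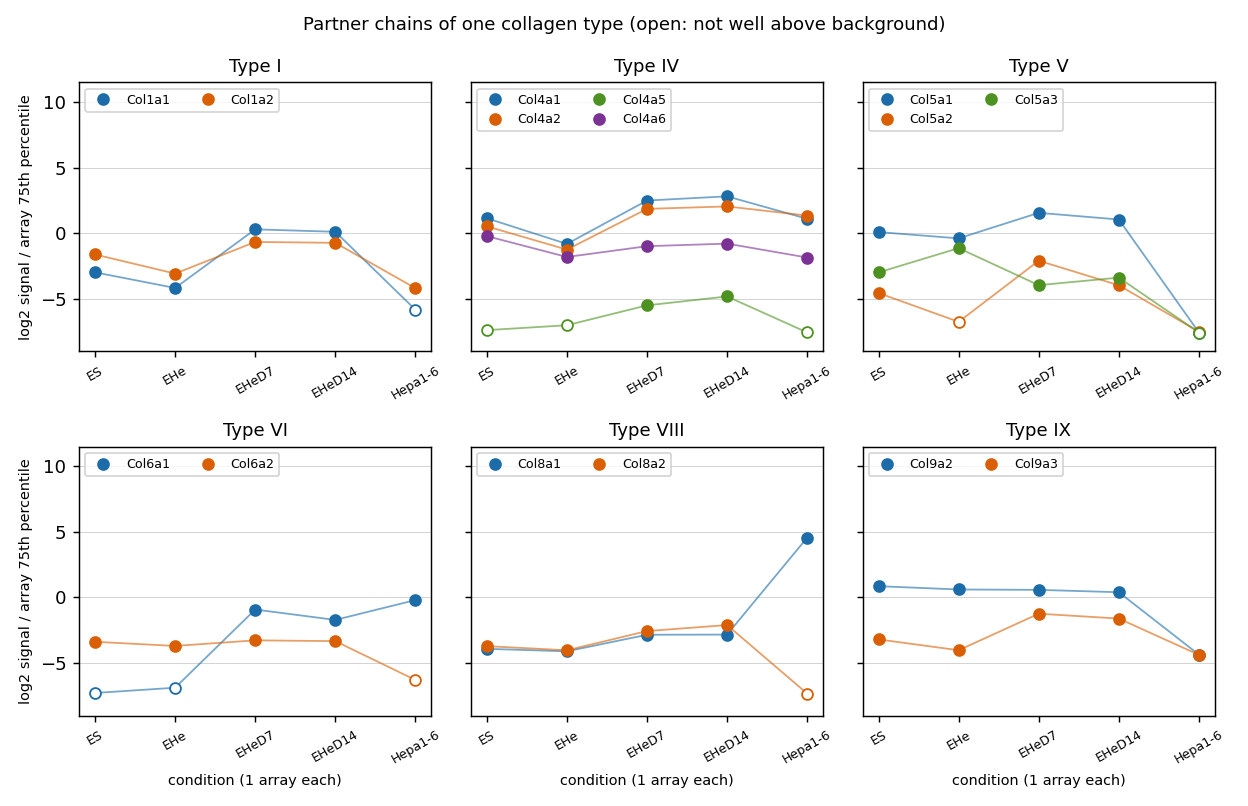
The 6 panels show chains of collagen types I, IV, V, VI, VIII and IX, with log2 signal relative to the array's 75th percentile on the vertical axis and the 5 conditions (1 array each) on the horizontal, filled points well above background and open points not. The lines of Col4a1 and Col4a2 run in parallel from ES to EHeD14, whereas Col6a1 and Col6a2, Col8a1 and Col8a2, and Col5a2 and Col5a3 part.

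Among the other collagens 7 of 20 were over 3-fold higher at day 14 and 4 lower. Type XVI, which binds to the surface of fibrils, was among them, although its second probe was not well above background on any array. Col16a1 was at -4.35 in ES, not well above background in EHe (-5.61), at -0.64 and -0.49 in EHeD7 and EHeD14, and -2.02 in Hepa1-6. It was at least 18.4-fold above EHe at day 7 and at least 20.4-fold at day 14. A further member of the fibril-associated group, Col9a3, was at -3.19 in ES and -4.02 in EHe, then -1.23 and -1.61 in EHeD7 and EHeD14 and -4.37 in Hepa1-6, 6.9-fold and 5.33-fold above EHe. Its type IX partner Col9a2 was at 0.86, 0.61, 0.58 and 0.40 in ES, EHe, EHeD7 and EHeD14, a range within 3-fold, and Col9a1, the remaining chain, was not well above background anywhere.

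Type VI collagen forms beaded filaments around cells. Col6a1 was not well above background in ES (-7.28) or EHe (-6.88), and was at -0.92 and -1.71 in EHeD7 and EHeD14, and -0.20 in Hepa1-6. It was at least 15.2-fold above EHe at day 7 and at least 8.77-fold at day 14. Col6a2, its neighbour on chromosome 10 and its partner in the protein, did not follow: its level was -3.38 in ES and -3.69 in EHe, then -3.27 and -3.33 in EHeD7 and EHeD14 and not well above background in Hepa1-6 (-6.29). The upstream region of Col6a1 is printed because this gene went from background to a clear signal and its window was the only collagen window with TGANTCA, the AP-1 motif. It lies on the minus strand at chr10:76726045-76726294 of GRCm38.p6 and is written in the direction of the gene, with that motif in capitals.
Col6a1: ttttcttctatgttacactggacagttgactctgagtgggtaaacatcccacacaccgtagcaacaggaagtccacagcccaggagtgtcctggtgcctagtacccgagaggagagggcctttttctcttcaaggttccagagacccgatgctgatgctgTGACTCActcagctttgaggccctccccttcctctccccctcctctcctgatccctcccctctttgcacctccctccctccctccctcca

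Type VII collagen makes the anchoring fibrils that hold an epithelium to the tissue below. Col7a1 was at -2.33 in ES and -2.42 in EHe, then 0.68 and 0.51 in EHeD7 and EHeD14 and 1.91 in Hepa1-6, 8.6-fold and 7.64-fold above EHe at days 7 and 14. ES and EHe formed its low pair and the differentiated hybrids lay on the side of Hepa1-6. Its upstream region is shown because this gene was higher in Hepa1-6 and in the differentiated hybrids than in ES and EHe. It lies on the plus strand at chr9:108953336-108953585 of GRCm38.p6, with GGGCGG and ATTGG, the reverse complement of CCAAT, in capitals.
Col7a1: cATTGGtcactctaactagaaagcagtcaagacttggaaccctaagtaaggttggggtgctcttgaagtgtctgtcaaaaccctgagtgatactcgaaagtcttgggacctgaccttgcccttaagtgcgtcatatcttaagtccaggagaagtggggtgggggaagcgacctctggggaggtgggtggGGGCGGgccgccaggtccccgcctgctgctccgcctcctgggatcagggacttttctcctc

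The remaining rises were smaller. Col8a2, a chain of the hexagonal net of type VIII, was at -3.71 in ES and -4.03 in EHe, then -2.56 and -2.10 in EHeD7 and EHeD14, 3.79-fold above EHe at day 14 and 2.76-fold, below the threshold, at day 7. Col26a1 was at -3.37, -4.01, -2.25 and -2.19 in the same order, 3.38-fold and 3.53-fold above EHe. Col18a1, a basement membrane proteoglycan core whose end fragment is endostatin, was bright on every array, with 4.69 in ES and 3.69 in EHe, then 5.29 and 5.30 in EHeD7 and EHeD14 and 3.23 in Hepa1-6. Its 3.02-fold and 3.04-fold rises lay at the threshold, and a second probe gave 2.9-fold and 3.44-fold.

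The collagens that fell on differentiation included 2 of the 4 transmembrane collagens, Col13a1 and Col17a1, while Col23a1 and Col25a1 differed from EHe by 0.67 and -0.39 at day 14. Col13a1, a membrane collagen of cell adhesion sites, was at -0.73 in ES and 0.02 in EHe, then -4.51 and -4.19 in EHeD7 and EHeD14, and not well above background in Hepa1-6 (-6.12). It was 23.2-fold lower at day 7 and 18.6-fold at day 14, and a second probe was at least 4.61-fold and 3.04-fold lower. ES and EHe were its high pair. Col17a1, the membrane collagen of hemidesmosomes, was at -2.15 in ES and -1.35 in EHe, then -1.80 and -2.99 in EHeD7 and EHeD14, 3.11-fold lower at day 14 than in EHe. The second Col17a1 probe was not well above background in EHe (-4.60) or EHeD14 (-6.27).

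Col22a1, found at muscle-tendon junctions, was at -1.74 in ES, -1.76 in EHe, -2.80 in EHeD7, not well above background in EHeD14 (-5.06) and at 0.30 in Hepa1-6. It was at least 9.79-fold lower at day 14 than in EHe. Col6a5 was at -3.83 in ES, -3.94 in EHe, -4.38 in EHeD7 and not well above background in EHeD14 (-6.08), at least 3.06-fold lower than in EHe. Together with Col5a3 these make up the 5 that were lower at day 14. Of the 35 measurable collagens, Col2a1, Col3a1, Col4a4, Col4a5, Col19a1 and Col25a1 passed 3-fold in none of the 7 comparisons made here, and Col19a1 was well above background in ES (-5.08) and EHeD7 (-5.69) only.

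**Figure D3:**
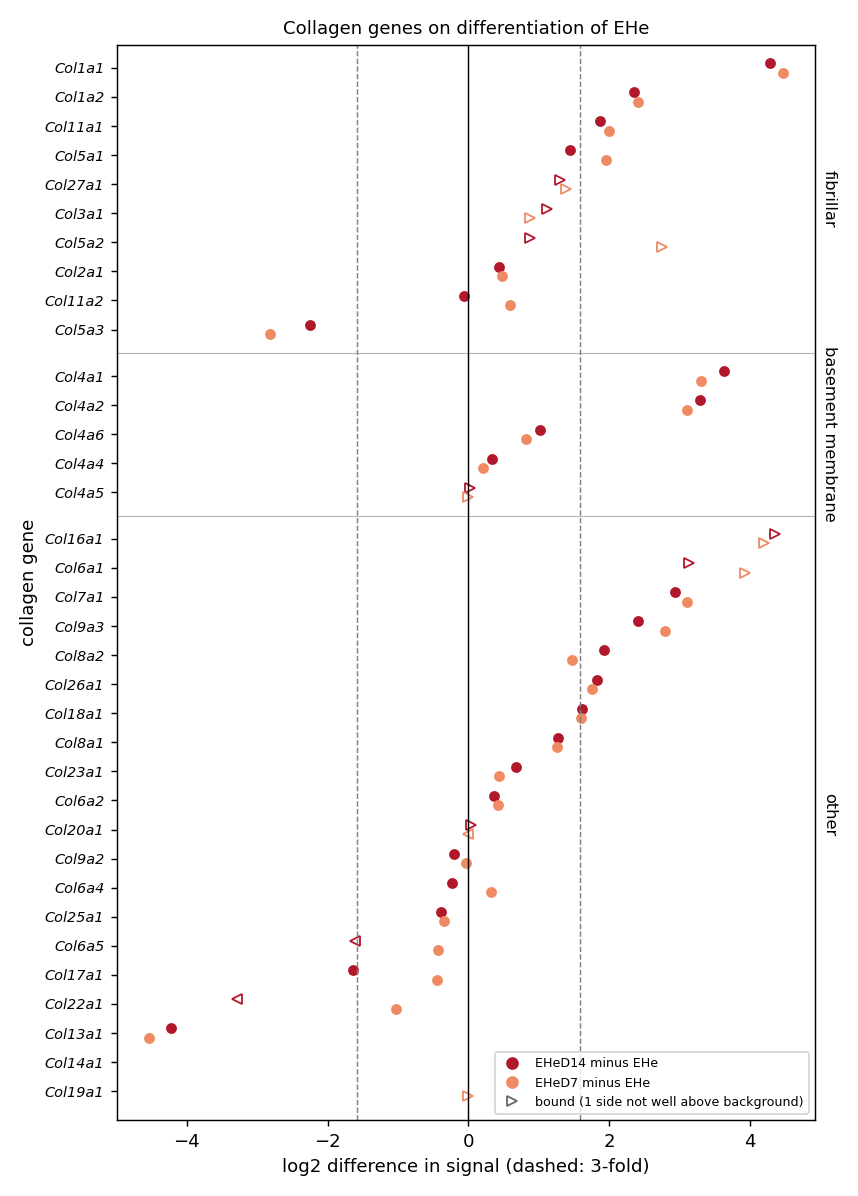
Each row is a collagen gene, sorted within its class by the day 14 value, and the horizontal axis is the log2 difference in signal from EHe at day 14 (dark red) and day 7 (orange), 1 array per condition, with dashed lines at 3-fold and open triangles for bounds. Most of the points past the right line are Col1a1, Col1a2, Col11a1, Col4a1, Col4a2, Col16a1, Col6a1, Col7a1 and Col9a3, and Col13a1 lies farthest to the left.

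The calls were not equally firm. Under background correction by normexp, quantile normalization and median centring, 12 of the 15 calls at day 7 and 11 of the 17 at day 14 passed 3-fold each time, and no call changed direction. Those lost at day 14 in at least 1 of the 3 were Col11a1, Col8a2, Col26a1, Col18a1, Col17a1 and Col6a5. Type I, Col4a1, Col4a2, Col5a3, Col6a1, Col7a1, Col9a3, Col13a1, Col16a1 and Col22a1 kept their calls.

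Little moved between day 7 and day 14. None of the 35 was over 3-fold higher at day 14 (0.492% of all genes were), and 2 were over 3-fold lower, Col5a2 and Col22a1 (5.71%, against 0.641% of all genes). Col22a1 was at least 4.78-fold lower. Neither of these 2 calls passed 3-fold under normexp. Signals as measured, without bounds, gave 3 lower. The median difference was -0.04.

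Before differentiation few collagens differed by 3-fold between the hybrid and its ES parent. Against ES, 1 of the 35 was over 3-fold higher in EHe (2.86%, where 2.36% of all genes were), Col5a3, and 4 were lower (11.4%, where 3.22% of all were). The 4 were Col4a1 with 3.88-fold, Col4a2 with 3.42-fold, Col4a6 with 3.01-fold and Col11a1 with 5.3-fold. Of the 5 measurable basement membrane collagens 3 were thus lower in EHe, with a class median of -1.68, beside -0.40 in the fibrillar and -0.22 in the other collagens. None of the 18 other collagens measured in ES or EHe passed 3-fold in either direction. Under normexp the split was 0 higher and 2 lower, and Col11a1 and Col4a1 kept their calls under each of the 3 other scalings. The second probes of Col4a1 and Col4a2 gave 2.31-fold and 2.1-fold, lower in EHe as well but below the threshold.

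EHe was lower than both parents in the main type IV chains. Its Col4a1 level of -0.82 lay 3.88-fold below ES and 3.77-fold below Hepa1-6, and its Col4a2 level of -1.25 lay 3.42-fold and 6.04-fold below them. Type I was between the parents, with Col1a1 and Col1a2 in EHe 2.28-fold and 2.75-fold below ES, while Col1a1 was at least 2.19-fold and Col1a2 2.17-fold above Hepa1-6. None of these type I differences passed 3-fold. Under the 3 other scalings the log2 differences from Hepa1-6 shrank from 1.13 and 1.11 to between 0.27 and 0.49.

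The parent lines differed in many collagens. In Hepa1-6, 9 of the 35 were over 3-fold higher than in ES (25.7%, against 13.1% of all genes) and 14 were lower (40%, against 20.9%). The collagen median was -1.22 and that of all genes -0.42. Of the 10 measurable fibrillar collagens 5 were over 3-fold lower there and 2 higher, with a class median of -2.32. Of those 5, Col11a1 and Col5a1 passed 3-fold under all 3 other scalings. Median centring gave 10 higher with 7 lower among all collagens, quantile normalization 9 with 7, and normexp 5 with 7. Of the 23 calls, 11 passed 3-fold under all 3 other scalings, and no call changed direction.

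Col8a1, the other type VIII chain and a product of vessel wall and eye, showed the widest gap. Its level was -3.91 in ES and -4.10 in EHe, then -2.84 and -2.83 in EHeD7 and EHeD14 and 4.56 in Hepa1-6. Hepa1-6 was 355-fold above ES, 405-fold above EHe and 168-fold above EHeD14, and a second probe, not well above background outside Hepa1-6, was at least 14.8-fold above ES. Its partner Col8a2 was not well above background in Hepa1-6 (-7.32), at least 3.03-fold below ES, a call lost under each of the 3 other scalings. Of the type VIII chains only Col8a1 was thus well above background in this line. The differentiated hybrids did not approach the Hepa1-6 level of Col8a1 and were within 3-fold of EHe.

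Col6a1 in Hepa1-6 was at least 37.4-fold and Col7a1 18.9-fold above ES. Col14a1, a fibril-associated collagen, was well above background in Hepa1-6 alone by its main probe (-1.65), at least 13.6-fold above ES. Its second probe did not follow: it was not well above background in Hepa1-6 (-5.88) and was called well above background in EHeD14 only (-5.31). Col27a1 was at least 11.8-fold higher. Col16a1 was 5.03-fold higher, Col20a1 4.54-fold (-4.09 in ES and -1.91 in Hepa1-6), Col22a1 4.1-fold and Col11a2 3.56-fold, although the other Col11a2 probe was at least 3.96-fold lower. These are the 9 that passed 3-fold by the probe used.

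Of the 14 that were lower, Col9a2 had the widest gap of those well above background in both lines, with -4.36 in Hepa1-6, 37.3-fold below ES. Col5a1 was at least 42-fold lower by its main probe and 2.01-fold by the second, Col13a1 at least 23.8-fold and Col17a1 at least 8.91-fold. The second probes of Col13a1 and Col17a1 gave at least 2.04-fold and at least 2.24-fold. Col11a1 was 6.47-fold lower, Col6a4, a beaded filament chain with -1.07 in ES and -3.70 in Hepa1-6, 6.17-fold, and Col1a2 5.94-fold. Col1a1 was at least 5-fold, Col5a3 at least 4.98-fold, Col26a1 and Col6a2 at least 3.81-fold, Col23a1 at least 3.54-fold, Col4a6 3.1-fold and Col8a2 at least 3.03-fold lower. Neither Col4a1 (1.03-fold) nor Col4a2 (1.76-fold) was past the threshold between the parents, while the second Col4a1 probe was 3.7-fold higher in Hepa1-6.

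**Figure D4:**
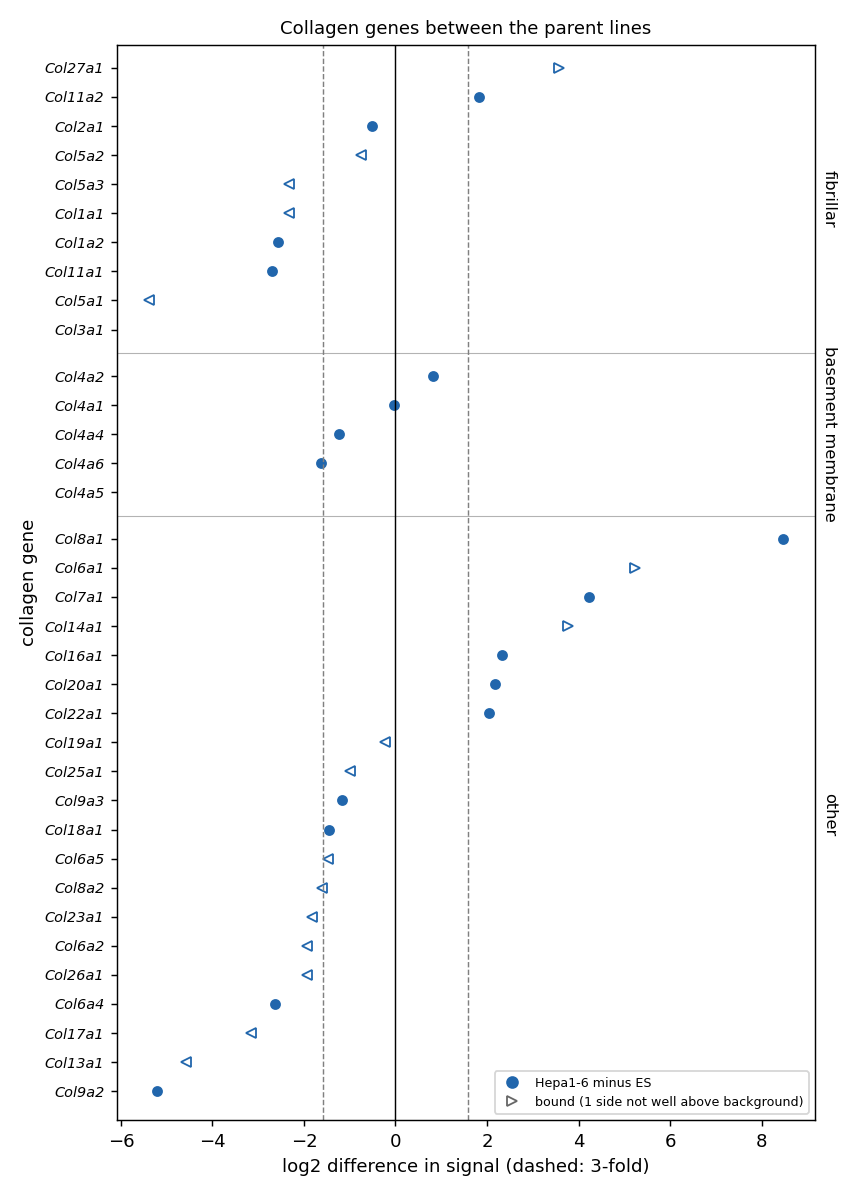
Each row is a collagen gene, sorted within its class, and the horizontal axis is the log2 difference in signal between the parent lines (Hepa1-6 minus ES, 1 array each), with dashed lines at 3-fold and open triangles for bounds. Col8a1, at 8.47, lies far to the right of the other genes, Col5a1 and Col9a2 lie farthest to the left at -5.39 and -5.22, and no basement membrane collagen passes the right line.

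Set directly against Hepa1-6, EHeD14 had 15 of the 35 over 3-fold higher (42.9%, against 17.6% of all genes) and 4 over 3-fold lower (11.4%, against 12.2%). The higher ones included Col5a1 with at least 81.5-fold (1.57-fold by its second probe), Col1a1 with at least 42.6-fold, Col9a2 with 27.1-fold and Col1a2 with 11-fold. The 4 lower ones were Col8a1 with 168-fold, Col22a1 with at least 40.9-fold, Col14a1 with at least 15-fold and Col20a1 with 6.13-fold. The second Col14a1 probe did not show this: it was well above background in EHeD14 (-5.31) and not in Hepa1-6 (-5.88). In Col6a1, Col7a1, Col4a2 and Col16a1 the differentiated hybrid lay within 3-fold of the hepatoma line, with 2.85-fold and 2.63-fold lower levels for the first 2 and 1.62-fold and 2.88-fold higher levels for the others. Other scalings put the first 2 past 3-fold lower. Median centring gave log2 differences of -2.34 for Col6a1 and -2.22 for Col7a1, and quantile normalization -1.62 for Col6a1. Median centring turned the split to 7 higher and 8 lower, quantile normalization gave 10 and 7, and 10 of the 19 calls passed 3-fold under all 3 other scalings.

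Undifferentiated EHe against Hepa1-6 had 7 higher (20%, against 17.9% of all genes) and 10 lower (28.6%, against 12.8%). The higher ones included Col13a1 with at least 40.2-fold, Col9a2 with 31.3-fold, Col5a1 with at least 30.1-fold and Col5a3 with at least 17.9-fold. The second probe of Col13a1 gave at least 2.56-fold. That of Col5a1 did not show the difference: it was not well above background in EHe (-4.80) but was in Hepa1-6 (-5.27). The comparisons of EHeD14 and EHe share the Hepa1-6 array.

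Several collagen genes are neighbours in the genome, and neighbours did not always move together. RefSeq gene order holds 8 neighbouring pairs, with 15 collagen genes in them. Col4a1 and Col4a2 rose together at day 14, with log2 differences of 3.63 and 3.29. Col6a2 and Col6a1 differed by 0.37 and at least 3.13 from EHe. Col6a5 and Col6a4 differed by -1.62, a bound, and -0.23. Col3a1 and Col5a2 gave bounds of 1.11 and 0.87.

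Promoter windows (250 bases before the start site and 50 after) were found in RefSeq for 35 of the 44 collagen genes, 38 windows in all. GGGCGG stood on either strand in 23 of them (60.5%), beside 35.7% of all 32851 windows. CCAAT stood in 13 (34.2%, beside 37.4% of all), TATAAA, the TATA box, in 5 (13.2%, beside 13.6%) and TGANTCA in 1 (2.63%, beside 7.81%). None of these motifs contains another. The median GC content was 59.8% in collagen windows and 52.7% in all. A match says only that the letters are there.

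The genes around collagen were counted in the same way, and their counts stand beside the shares of all genes given above for the same comparisons, which for Hepa1-6 against ES were 13.1% higher and 20.9% lower, and against EHe 6.71% and 4.09% at day 7, and 6.77% and 4.38% at day 14. Of the genes of these lists with the largest differences (up to 4 per list), 10 were called at day 14, of which 7 passed 3-fold under all 3 other scalings. Plod2, Loxl2 and Mmp9 did not. Of the 20 measurable genes for chain modification and folding, 3 passed 3-fold upward and 5 downward from ES to Hepa1-6, shares of the order of those over all genes. Serpinh1, the chaperone of the collagen helix, was at 2.26 in ES and 3.12 in EHe, then 3.27 and 3.19 in EHeD7 and EHeD14 and not well above background in Hepa1-6 (-7.38), at least 190-fold below ES. Fkbp10, a prolyl isomerase that acts with it, was at 2.54, 2.01, 3.23, 2.90 and -5.04 in the same order, 192-fold lower in Hepa1-6. P3h4 (at least 88.6-fold) and Plod2, a lysyl hydroxylase (at least 21.8-fold), were also lower there. The 3 that were higher in Hepa1-6 were named after their values were seen. They were P4ha1 (-0.54 in ES and 2.18 in Hepa1-6), Fkbp7 (-1.84 and 0.21) and Plod3 (2.78 and 4.37). The median log2 difference of the list between these lines was 0.11. At day 7 the list had 3 genes over 3-fold higher than in EHe and none lower. At day 14 it had 1 higher, Plod2 with 3.21-fold, and 1 lower, Tmem38b with at least 4.25-fold, which was named after its value was seen.

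Of the 9 measurable genes for propeptide cleavage and crosslinking, 2 were higher and 1 lower than in EHe at day 7 and at day 14 alike. Bmp1, the protease that trims the ends of procollagens I to III, was at -0.59 in ES and -2.18 in EHe, then 0.97 and 0.64 in EHeD7 and EHeD14 and 1.96 in Hepa1-6, 7.03-fold above EHe at day 14. Loxl2, a crosslinking enzyme, was 3.19-fold higher at day 14 and 20.3-fold lower in Hepa1-6 than in ES. Its relative Loxl1 was at least 30.9-fold lower in Hepa1-6, and Loxl4 at least 56.7-fold higher. Pcolce, which speeds the trimming and was named after its value was seen, was 3.87-fold lower at day 14.

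Of 7 measurable collagen receptors 3 were higher and none lower at each of the 2 days. At day 14 these included Adgrg1, a receptor for type III, with 4.55-fold. The others were Itga1 and Mrc2, with at least 3.1-fold and at least 4.08-fold, named after their values were seen. Ddr2, a receptor for fibrillar collagens, was at -0.40 in ES, not well above background in the 3 hybrid conditions and at 3.23 in Hepa1-6, 12.4-fold above ES. Itga2 was at least 12.2-fold and Itgb1 4.42-fold higher in Hepa1-6. Of the 4 measurable genes for collagen breakdown 2 were higher at day 14, Mmp2, which cuts type IV and denatured collagen, with 7.67-fold (-1.53 in EHe and 1.41 in EHeD14) and Mmp9 with at least 3.78-fold. Mmp13, a collagenase, was well above background in Hepa1-6 only (4.88).

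Among 9 measurable proteins that bind fibrils, Comp was 5.23-fold higher and Fn1, fibronectin, 3.35-fold lower at day 14. Dcn, decorin, a proteoglycan of type I fibrils, was at 7.46 in Hepa1-6 and not well above background elsewhere. Bgn was at least 3.85-fold lower in Hepa1-6 than in ES, a call lost under each of the 3 other scalings. Of the 9 measurable partners of type IV in the basement membrane, 3 were higher and 1 lower (Lama1, 3.54-fold) at day 7, and 3 higher and none lower at day 14. Lamb1, a laminin chain, was at 0.82 in ES and -0.41 in EHe, then 2.49 and 2.44 in EHeD7 and EHeD14 and -0.14 in Hepa1-6, 7.2-fold higher, and Lama4 was at least 7.44-fold higher. Lama5, named after its value was seen, was 3.95-fold higher. Nid2, nidogen, was 263-fold and Lama1 at least 56.9-fold lower in Hepa1-6 than in ES.

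**Figure D5:**
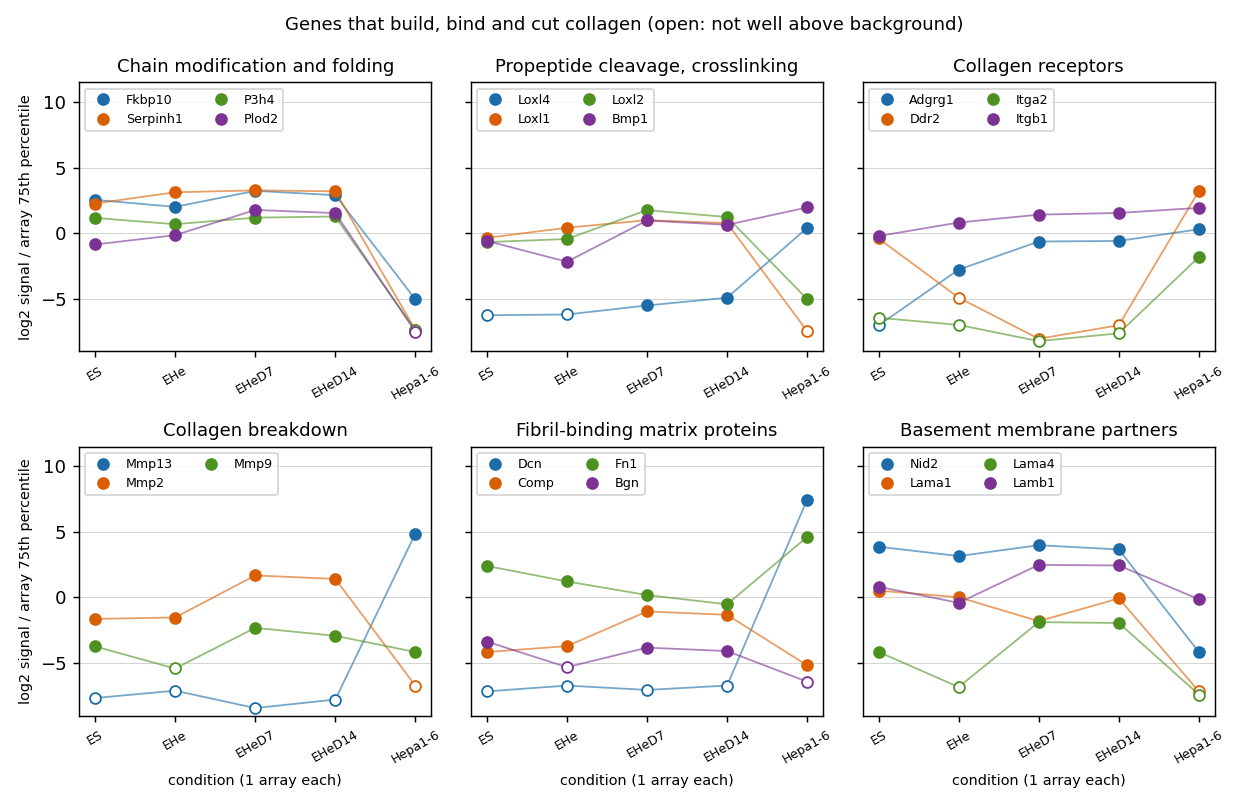
The 6 panels show up to 4 genes of each list around collagen (chain modification and folding, propeptide cleavage and crosslinking, receptors, breakdown, fibril binding, basement membrane), with log2 signal relative to the array's 75th percentile against the 5 conditions (1 array each), filled points well above background and open points not. Serpinh1, Fkbp10, P3h4 and Plod2 drop in Hepa1-6, Mmp13 and Dcn are seen there alone, and Bmp1, Mmp2, Lamb1 and Lama4 are higher in EHeD7 and EHeD14 than in EHe.

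Markers of cell types that make collagen moved in the same cultures. Of 8 markers of parietal and visceral endoderm, known makers of type IV collagen, 2 were over 3-fold higher and 1 lower (Sox7, 8.05-fold) than in EHe at day 7, when Col4a1 and Col4a2 had already risen, and 5 were higher and none lower at day 14. All genes had 6.71% higher and 4.09% lower at day 7, and 6.77% and 4.38% at day 14. The summed signal of the list, in units of the array's 75th percentile, was 5.25 in ES and 0.976 in EHe, then 1.78 and 3.82 in EHeD7 and EHeD14 and 29.7 in Hepa1-6. The sum in Hepa1-6 came mainly from Plat (4.25) and Foxa2 (3.38), and 2 of the list were over 3-fold higher there than in ES and 4 lower. EHe was lowest in the sum and in Col4a1 and Col4a2. The order of the other conditions differed: ES and Hepa1-6 lay above EHeD14 in the sum and below it in Col4a1 and Col4a2. Gata6 in this list was at 1.59, -2.10, -1.52 and -0.24 in ES, EHe, EHeD7 and EHeD14, and not well above background in Hepa1-6 (-7.49). Of 8 fibroblast and mesenchyme markers 2 were higher and 1 lower at day 7, with a list median of 0.05. At day 14, 3 were higher, Pdgfrb, Thy1 and Twist1, with 4.9-fold, 4.49-fold and 3.33-fold, and none was lower, with a list median of 0.98. The summed signal was nevertheless 53.3 in EHe and 32.3 in EHeD14. The brightest of the list, Vim, named after its value was seen, was at 5.30 in EHe and 3.92 in EHeD14. Of the pluripotency markers 3 of 5 were lower at day 14 and none higher. The parts of these cell types in the collagen differences were not tested.

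Of 5 chondrocyte markers, Acan and Matn3 were well above background in ES and in every hybrid, with -2.36 and -0.57 in EHeD14, and no marker of this list passed 3-fold at either day. Sox9, the defining marker of chondrocytes, was not well above background in ES or any hybrid and was at 2.24 in Hepa1-6, and Runx2, that of osteoblasts, was likewise seen in Hepa1-6 only (-1.92). Sp7 of the osteoblast list was well above background in ES, EHeD7 and EHeD14, and Bglap on every array. Bglap was at -2.41 in EHe, -4.02 in EHeD7 and -3.35 in EHeD14, and its fall at day 7 was the only call of that list against EHe. Of the endothelial markers, Pecam1 was at least 18.7-fold lower at day 14 than in EHe. Hepa1-6 carried the hepatocyte markers Alb (6.06), Afp (6.77) and Fgb (4.70), and 5 of 7 of that list were well above background in it, Ttr and Apoa1 being the exceptions. None of them was over 3-fold higher in the differentiated hybrids than in EHe.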

How the data were processed

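Total RNA of 5 cell populations was hybridized to Agilent 1-colour arrays, 1 array per condition, and groups came from the sample labels. For the dye, Cy3 stands in the labels and Cy5 in the methods. The authors deposited the scanner tables of Feature Extraction 10.7.3.1, whose processed signal is an intensity corrected for background and detrended but not normalized between arrays. The deposited series table held the same intensity.

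Control and outlier spots (between 73 and 174 per array) were left out, and none was saturated. The log2 of each signal was taken, the array's 75th percentile subtracted and spots of a probe averaged. Probes were named through RefSeq accessions (26888 of 41174). Of several probes of a gene, the one well above background on most arrays, then the brightest, was used, and background calls are those of that probe. Another probe was well above background where it was not for Col5a1 in Hepa1-6 and Col14a1 in EHeD14. A bound that pointed the wrong way was set to no difference. The 15443 genes above background on at least 1 array were counted past 3-fold, the fold threshold that the study gives beside a t-test. With 1 array per condition no test was made here.

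The genes named were all collagens past 3-fold in a comparison, partner chains of a protein and up to 4 genes per list with the largest difference. The members and lists were chosen with earlier results of these data known, and the promoters printed were chosen after the values had been seen. Motifs were searched on both strands. Alternatives were normexp (offset 50, on the median spot signal, the mean signal not being used here), quantile normalization, median centring, the series table, signals as measured without bounds, the mean over probes of a gene, every collagen without a filter or those above background on all 5 arrays, a 2-fold threshold and another class for Col15a1 and Col18a1. On data simulated from the ES array with small random noise, all of 200 raised and 200 lowered genes were found at 8-fold and none of the others. The changed genes were all far above background, so this checked the code only. It says nothing on dim genes or on differences between arrays. Python 3.11.15, numpy 2.4.6, pandas 2.3.3, matplotlib 3.10.9, R 4.3.3 and limma 3.58.1 were used.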

Additional observations from a re-analysis of the deposited data

How the results depend on the processing

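The counts of collagens past 3-fold and their medians were recomputed in 182 cases. Of these, 130 stayed within 1.5 times the count or within 0.17 (log2) of the median, 51 moved and 1 changed sign beyond that margin. The 130 include every case of the series table, which held the same intensity and so could not move. The sign change was in the median of EHe against Hepa1-6, at -0.32 under median centring instead of 0.35. Within the margin, the median of EHeD14 against EHeD7 went from -0.04 to 0.010 without a filter. Median centring further gave 7 higher and 8 lower for EHeD14 against Hepa1-6, 7 lower for Hepa1-6 against ES, and medians of 0.70, -0.44 and, for EHeD7 against EHe, 0.67. It moved the median of all genes from -0.42 to 0.30 for Hepa1-6 against ES, from 0.22 to -0.54 for EHeD14 against Hepa1-6 and from -0.02 to -0.18 for EHeD14 against EHe. Quantile normalization gave 7 lower in both Hepa1-6 comparisons (against ES, and EHeD14 against it), with medians of -0.50 and 0.82, and 0.031 for EHe against Hepa1-6. Normexp gave 5 higher and 7 lower for Hepa1-6 against ES, 0 higher and 2 lower for EHe against ES, 3 lower for EHeD14 against EHe and 0 lower against EHeD7, with medians of -0.73 for Hepa1-6 against ES, 0.66 for EHeD14 against EHe and 0.81 for EHeD14 against Hepa1-6. With genes above background on all 5 arrays (14 collagens), those higher numbered 3 for Hepa1-6 against ES, 0 for EHe against ES, 7 for EHeD7 and for EHeD14 against EHe, 7 for EHeD14 and 2 for EHe against Hepa1-6, and those lower 5, 0 for both days against EHe, 0 for EHeD14 against EHeD7, 1 and 4. The medians were then -0.87 for EHe against ES, 1.43 at day 7 and 1.44 at day 14. Signals as measured gave medians of -1.63 for Hepa1-6 against ES, 1.33 at day 7, 1.29 at day 14 and 1.93 against Hepa1-6, and 11 higher for EHe against Hepa1-6. Without a filter 11 were higher there too and 2 for EHe against ES, with medians of 0.58, 0.62 and 1.16 for the same 3 comparisons. The mean of a gene's probes gave 1 lower for EHe against ES and medians of 0.77 for EHeD14 against EHe and 1.33 against Hepa1-6. At 2-fold, 13 were higher for EHe against Hepa1-6, 4 lower for EHeD14 against EHeD7 and 8 lower for EHeD14 against Hepa1-6. The series table gave the same values. With Col15a1 and Col18a1 among the basement membrane collagens their median changed sign for EHe against Hepa1-6, from -0.94 to 0.041, and was 1.21 at day 7, 1.31 at day 14, 0.88 for EHeD14 against Hepa1-6 and -1.22 for Hepa1-6 against ES. The causes were not tested. No paired analysis was possible because no condition had a second array. Low signals limit the precision: 15 of the 35 collagens were not well above background in Hepa1-6.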
